A study of Ciona robusta with 6 samples.

Results

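Among the gene models measured in sorted cells of the bipolar tail neuron (BTN) lineage of the tunicate *Ciona robusta*, 13 of 15232 were lower in both Neurog libraries than in the lacZ control and did not fall far below the lower control value in either Neurog:WRPW library. They were chosen from CPM values, the counts of a gene model divided by the total of its library and multiplied by 1000000. A member had at least 5 CPM in both lacZ libraries, its higher Neurog value was at most 0.6 times its lower lacZ value, and its lower Neurog:WRPW value was at least 0.75 times its lower lacZ value, with no upper limit. The rule used every library and every pair of groups, so the levels of the 13 members are given as a description. The calls, adjusted p counts and intervals printed for members below describe them too and are not evidence about them.

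Cells carrying a fluorescent *Neurog[BTN]* reporter were sorted at 9.5 hpf from embryos raised at 20°C, in 3 conditions with 2 biologically independent libraries each. In *Neurog* > *Neurog* the same BTN-lineage driver expressed wild-type Neurog, in *Neurog* > *Neurog:WRPW* it expressed Neurog fused to a WRPW repressor motif, and in *Neurog* > *lacZ* it expressed a bacterial enzyme. All 3 groups carried a reporter plasmid and came from electroporated embryos, and no counterselection was applied in the sort. By the study's methods, far fewer cells went into lacZ replicate 2 and Neurog:WRPW replicate 2 than into replicate 1 of the same condition, and fewer into Neurog replicate 1 than into Neurog replicate 2. Gene models are those of the KyotoHoya (KH) set, and none of the sources used here pairs any of the 13 members with a gene name, so no function is given for them.

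Neurogenin is a bHLH transcription factor of the proneural class, which generally activates transcription and in vertebrates and tunicates alike promotes neuronal fate. The WRPW motif recruits corepressors of the Groucho family, so a Neurog:WRPW fusion is used to repress the genes that Neurog would otherwise activate. BTNs are a minority of the lineage that the driver marks in control embryos, which also yields epidermal cells and sensory neurons of the epidermis.

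The libraries held 10315548 to 24499397 counts, with Neurog:WRPW replicate 2 the shallowest. *Neurog* itself (KH.C6.129) was at 4180.3 and 4479.5 CPM in Neurog, 105.5 and 166.0 in Neurog:WRPW and 95.4 and 124.6 in lacZ. Plasmid reads are included, and the gene separated the Neurog libraries but not the Neurog:WRPW libraries from the control. The Neurog:WRPW plasmid also carries Neurog sequence, but its expression was not visible in the counts of this gene. The reason was not tested, and these counts do not show how strongly the fusion was expressed. The BTN marker *Asic* (KH.C1.215) was at 478.7 and 214.0 CPM in Neurog, 14.1 and 1.16 in Neurog:WRPW and 78.0 and 41.6 in lacZ, with no overlap between groups. Of the 48 genes listed with BTN signal by in situ hybridization in the copy of the study's table used here, 43 were higher in both Neurog than in both lacZ libraries, against 27.7% of the 8368 gene models at 5 CPM or more in both lacZ libraries. Of the same 48 genes, 33 were lower in both Neurog:WRPW than in both lacZ libraries, against 20.8% of those models. The study's other lists moved likewise. By the same criteria, 14 of 15 genes listed for other CNS neurons and 13 of 13 listed for other tissues were raised in Neurog, and 11 of 15 and 8 of 13 were reduced in Neurog:WRPW. These lists were chosen by the study partly on these samples and are not independent evidence, and none of the 13 members is in them.

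Lowering by Neurog was the rarer condition, but the conditions were not alike in strictness. Of the 8368 gene models, 39 (0.466%) met the Neurog condition, whereas 5967 (71.3%) met the Neurog:WRPW condition, and the 13 members are 0.155%. Of the 39 lowered models, 13 were kept in Neurog:WRPW, 1 (KH.C3.281) was lowered there as well, to at most 0.6 times the lower lacZ value, and 25 met neither condition. In 7 of the 25 the lower Neurog:WRPW value was 0.6 to 0.75 times the lower lacZ value, and in 18 it was under 0.6 times while the higher one was not. In the opposite direction, 265 models had a lower Neurog value above the higher lacZ value by the inverse of the same factor. In Neurog:WRPW, 66 models had a higher value at most 0.6 times the lower lacZ value, the limit used for Neurog. The number of members depended on single libraries. It was 188 without Neurog replicate 2, 49 without Neurog replicate 1, 27 without Neurog:WRPW replicate 2 and 24 without lacZ replicate 2, and the last set held only 2 of the 13.

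**Figure D1:**
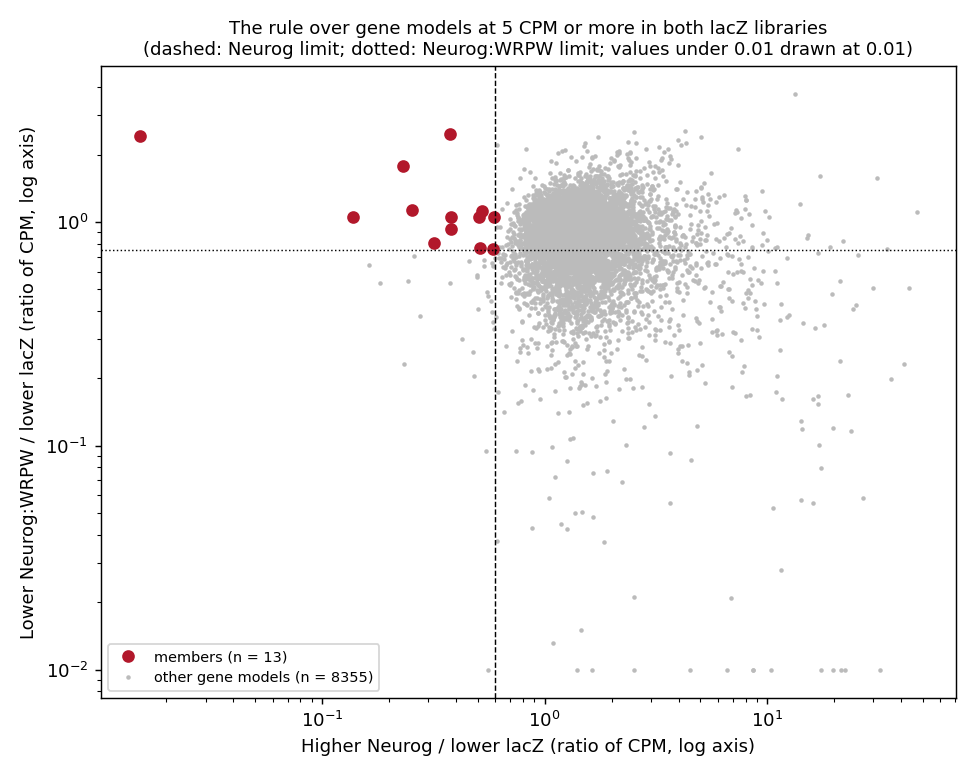
Each point is 1 of the 8368 gene models at 5 CPM or more in both lacZ libraries, placed by its higher Neurog value over its lower lacZ value (x axis, ratio of CPM, log scale) and its lower Neurog:WRPW value over its lower lacZ value (y axis, ratio of CPM, log scale). The 13 members (red) lie left of the dashed line at 0.6 and above the dotted line at 0.75, an area that holds no other model because the rule defines it.

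Other models lay close to each limit of the rule. Nearest inside the Neurog limit were KH.S739.1, KH.C14.587 and KH.L144.13, at 0.593, 0.588 and 0.521 times the lower lacZ value. Nearest outside it were KH.C7.64, KH.C8.535 and KH.L149.39, at 0.610, 0.614 and 0.623 times. For the Neurog:WRPW limit, KH.C14.587, KH.L152.12 and KH.C4.455 lay just inside at 0.757, 0.765 and 0.809 times the lower lacZ value, and KH.C1.1217, KH.C14.30 and KH.C7.370 just outside at 0.707, 0.679 and 0.670 times. For the control minimum, KH.L144.13, KH.L144.12 and KH.C11.572 were just inside at 5.10, 5.47 and 5.84 CPM in their lower lacZ library. KH.C11.223, KH.L18.135 and KH.L18.58 were just outside at 4.36, 4.16 and 4.12 CPM.

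The deepest loss was that of KH.L153.77, a model of 1289 bases. It had 2 and 1 counts (0.116 and 0.0633 CPM) in Neurog, 361 and 303 counts (18.5 and 29.4 CPM) in Neurog:WRPW and 1027 and 187 counts (60.5 and 7.63 CPM) in lacZ. Transcripts were thus close to absent from both Neurog libraries, while both Neurog:WRPW values fell between the 2 lacZ values. Over pooled counts the level in lacZ was 322.9 times that in Neurog (exact 95% interval 110.2 to 1568.1, Clopper-Pearson on the counts), and the level in Neurog:WRPW was 245.2 times that in Neurog (83.6 to 1192.2). The first ratio leaned on lacZ replicate 1, and with lacZ replicate 2 alone it was 84.2 (28.4 to 412.1). Reads are not independent molecules, so these intervals cover counting error only. They make no allowance for picking this model as the deepest loss in the same counts. In sorted bulk samples, fewer cells that express a gene and less RNA per cell cannot be told apart, here and for every member below.

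KH.C3.666 (1671 bases) had the highest mean lacZ level of the members, also per kilobase of model length. It was at 3.30 and 12.3 CPM in Neurog, 80.8 and 264.6 in Neurog:WRPW and 252.1 and 32.8 in lacZ. Both Neurog values lay below all others, and the Neurog:WRPW values were spread over much of the same range as the lacZ values, with the higher one just above the higher lacZ value. KH.C9.602 (2484 bases) was at 6.128 and 1.52 CPM in Neurog, 47.1 and 119.6 in Neurog:WRPW and 174.2 and 26.5 in lacZ. Here both Neurog:WRPW values lay between the 2 lacZ values, and the higher Neurog value was 0.231 times the lower lacZ value. Neurog replicate 2 was the higher Neurog library for KH.C3.666 and the lower one for KH.C9.602, so the depth of the loss was not ordered alike over the libraries.

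These 3 members (KH.L153.77, KH.C3.666 and KH.C9.602) shared a pattern across replicates. It is not independent of the rule, which set Neurog:WRPW against the lower lacZ value, so a low lacZ replicate 2 made that condition easier to meet. Against lacZ replicate 1, Neurog:WRPW replicate 1 was at only 0.305, 0.321 and 0.271 times. Nothing is therefore read from the shares in this paragraph. In lacZ, replicate 1 was 7.92, 7.69 and 6.57 times replicate 2, and in Neurog:WRPW replicate 2 was above replicate 1 by 1.59, 3.28 and 2.54 times. Among the 8368 models only 27 (0.323%) had lacZ replicate 1 over 5 times lacZ replicate 2, and 5 of the 27 had the higher Neurog:WRPW value in replicate 2. The other two were KH.C7.64 and KH.C4.697, which are named because of these values. KH.C7.64 missed the Neurog limit by the small margin given above, at 7.86 and 3.98 CPM in Neurog, 28.4 and 43.8 in Neurog:WRPW and 88.8 and 12.9 in lacZ. KH.C4.697 was not low in Neurog, at 103.6 and 76.4 CPM there, 28.8 and 317.4 in Neurog:WRPW and 53.7 and 7.76 in lacZ.

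**Figure D2:**
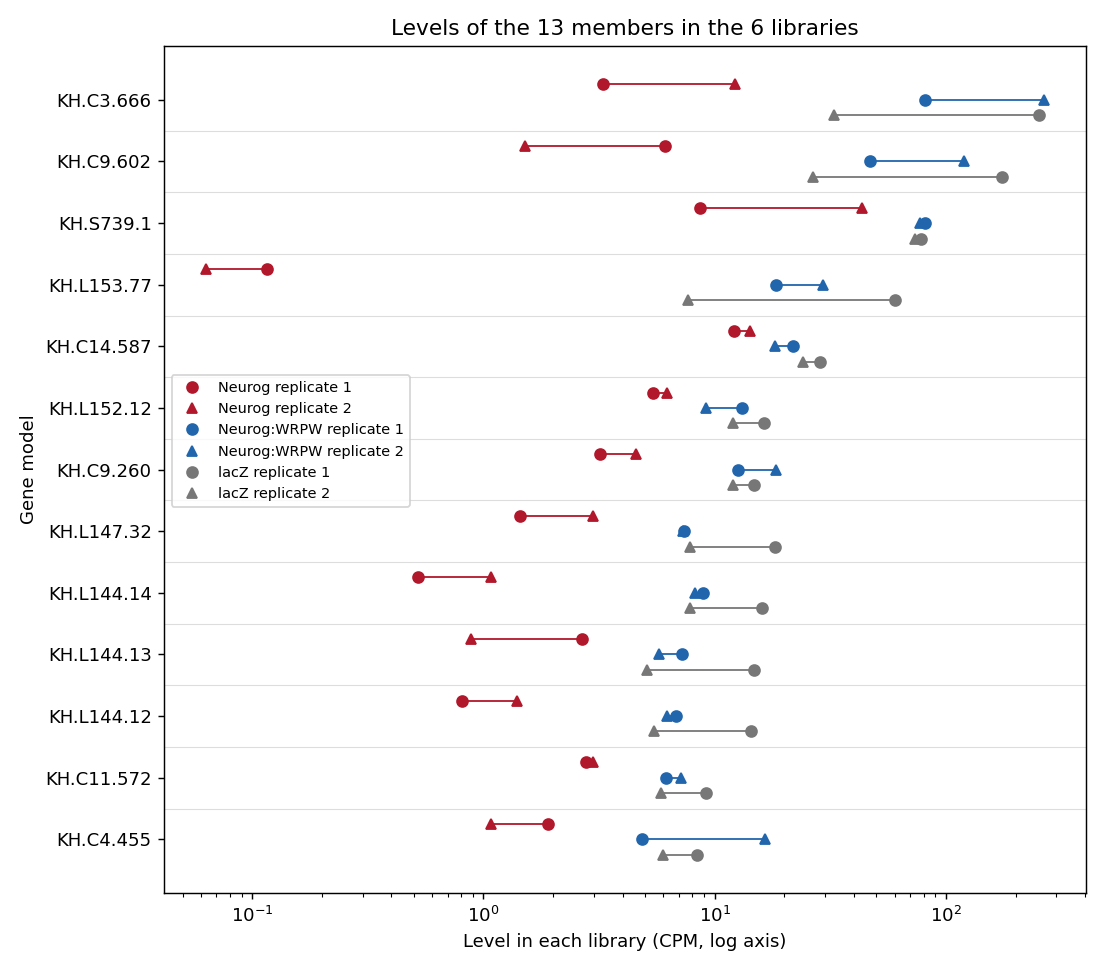
The level of each member (rows) in each library is plotted in CPM on a log axis, with Neurog in red, Neurog:WRPW in blue and lacZ in grey, replicate 1 as circles, replicate 2 as triangles and a line joining the 2 replicates. Every Neurog pair lies left of its lacZ and Neurog:WRPW pairs, and in every row the lacZ circle lies right of the lacZ triangle.

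In 5 members the lacZ replicates were under 1.5 times apart, namely KH.S739.1, KH.C9.260, KH.C14.587, KH.L152.12 and KH.C4.455, the last of which is described with the low members. KH.S739.1 (1415 bases) was at 8.67 and 43.5 CPM in Neurog, 81.0 and 77.3 in Neurog:WRPW and 78.0 and 73.4 in lacZ. Its 4 Neurog:WRPW and lacZ values lay within a narrow band, but its 2 Neurog values were 5.02 times apart, and the higher of them was only just under the limit. KH.C9.260 (3228 bases) was at 3.18 and 4.55 CPM in Neurog, 12.6 and 18.4 in Neurog:WRPW and 14.8 and 12.00 in lacZ. Its Neurog values were close together and well below the rest, and its Neurog:WRPW values overlapped with lacZ and reached above it.

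KH.C14.587 (3423 bases) had the smallest loss of the 13 by ratio of means, 0.499 times lacZ, at 12.1 and 14.2 CPM in Neurog, 21.8 and 18.2 in Neurog:WRPW and 28.5 and 24.1 in lacZ. The 3 groups did not overlap, and Neurog:WRPW stood between Neurog and lacZ. KH.L152.12 (2136 bases) was at 5.43 and 6.20 CPM in Neurog, 13.2 and 9.21 in Neurog:WRPW and 16.4 and 12.04 in lacZ. Its Neurog values were again close to each other, and the lower Neurog:WRPW value fell short of both lacZ values.

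KH.L144.12, KH.L144.13 and KH.L144.14 are numbered one after the other, the only such run among the members. KH.L144.14 (1578 bases) was at 0.520 and 1.08 CPM in Neurog, 8.893 and 8.24 in Neurog:WRPW and 15.95 and 7.80 in lacZ. KH.L144.13 (1005 bases) was at 2.66 and 0.886 CPM in Neurog, 7.21 and 5.72 in Neurog:WRPW and 14.8 and 5.10 in lacZ. KH.L144.12 (4971 bases) was at 0.809 and 1.39 CPM in Neurog, 6.80 and 6.20 in Neurog:WRPW and 14.4 and 5.47 in lacZ. In all 3 the Neurog:WRPW values lay close together, above the lower lacZ value and well below the higher one. The counts behind the Neurog values were low, at 9 to 46 in a library.

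Their neighbours by number did not share the loss to this extent. Of the 16 models numbered KH.L144 in the table, 12 had at least 5 CPM in both lacZ libraries. The mean in Neurog was 0.0672 to 0.178 times the mean in lacZ for the 3 members and 0.527 to 4.48 times for the 9 that are not members, and 5 of the 9 were higher in both Neurog libraries than in both lacZ libraries. The 3 members were chosen for low Neurog values, so part of this gap is built in. KH.L144.3, the lowest of the 9, was also below both lacZ values in both Neurog libraries. It was at 3.24 and 6.58 CPM in Neurog, 15.1 and 14.1 in Neurog:WRPW and 8.12 and 10.5 in lacZ. KH.L144.11, next to the run, was at 7.40 and 8.41 CPM in Neurog, 10.8 and 12.4 in Neurog:WRPW and 14.2 and 6.86 in lacZ, with Neurog inside the lacZ range. On the other side, KH.L144.15 had at most 3 counts in any library. Gene positions and strands were not used here, and whether the 3 models share reads was not tested. Around all 13 members, 20 models that are not members had a number 1 below or above a member, 13 of them had 5 CPM or more in both lacZ libraries, and 0 of these 13 met the Neurog condition, which 0.466% of the 8368 models met, so nothing is read from that count.

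**Figure D3:**
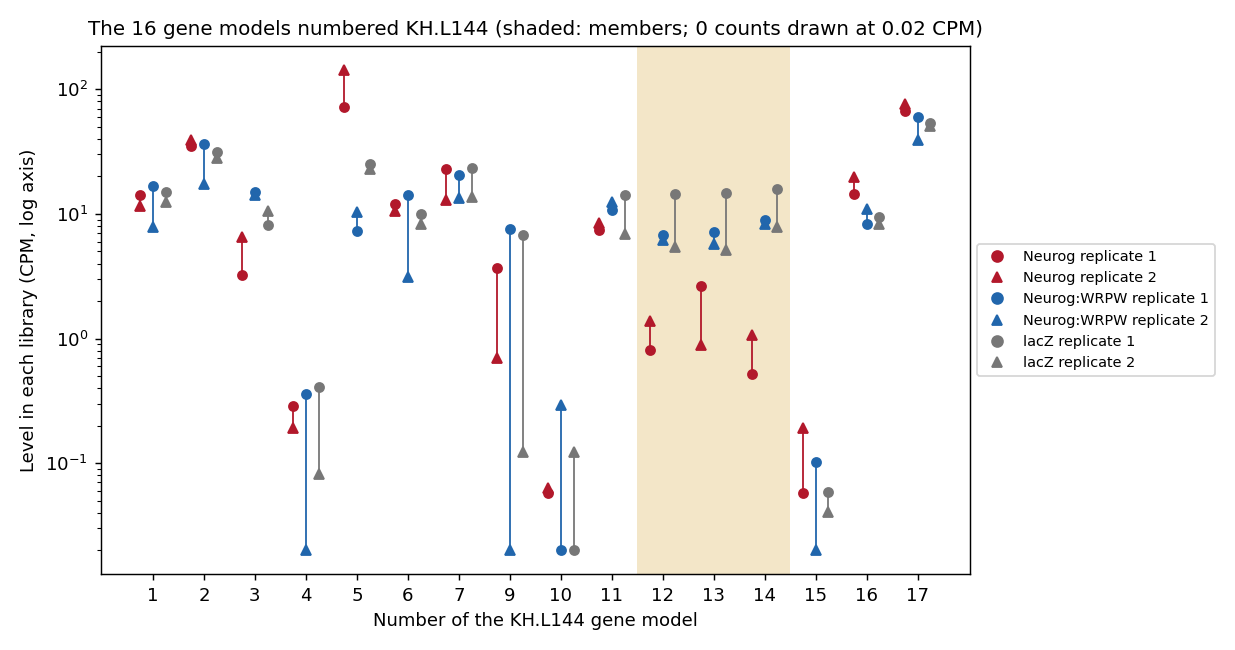
The level of each of the 16 gene models numbered KH.L144 (x axis, model number, not a distance) is plotted in CPM on a log axis for Neurog (red), Neurog:WRPW (blue) and lacZ (grey), with circles for replicate 1, triangles for replicate 2 and 0 counts drawn at 0.02 CPM. The shaded members 12, 13 and 14 are at 0.520 to 2.66 CPM in Neurog, while KH.L144.11 beside them is at 7.40 and 8.41 CPM.

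Of the remaining 3 members, KH.L147.32 (2057 bases) was at 1.45 and 2.97 CPM in Neurog, 7.36 and 7.27 in Neurog:WRPW and 18.2 and 7.80 in lacZ. Both of its Neurog:WRPW values lay below both lacZ values, by a narrow margin from the lower one. KH.C11.572 (1266 bases) was at 2.78 and 2.97 CPM in Neurog, 6.133 and 7.17 in Neurog:WRPW and 9.18 and 5.84 in lacZ, so Neurog:WRPW fell inside the lacZ range. KH.C4.455 (1640 bases) was at 1.91 and 1.08 CPM in Neurog, 4.86 and 16.6 in Neurog:WRPW and 8.36 and 6.0 in lacZ. For this last member the 2 Neurog:WRPW values lay on opposite sides of both lacZ values, 3.41 times apart.

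How closely the members were kept in Neurog:WRPW turned on which control library was taken. All 13 members were higher in lacZ replicate 1 than in lacZ replicate 2, against 60.3% of the 8368 models. In 7 of the 13, lacZ replicate 1 was over 2 times lacZ replicate 2, against 6.5% of the models. The median difference between the lacZ replicates, on the log2 scale and without regard to sign, was 1.02 over the members and 0.315 over the 8368 models. Between the Neurog replicates it was 0.773 over the members and 0.363 over the models, and between the Neurog:WRPW replicates it was 0.328 and 0.419. The rule used these same values, so part of each gap between members and models in this paragraph is built in. The members also had lower control levels, with a median lower lacZ value of 7.8 CPM against 27.7 CPM. Since the rule set Neurog:WRPW against the lower control value, lacZ replicate 2 decided it for every member. Against the higher lacZ value, only KH.C9.260 and KH.S739.1 would have been kept, and both Neurog:WRPW values lay below lacZ replicate 1 in 9 of the 13 members (46.8% of the 8368 models). The summed level of the 48 BTN genes also differed between the control libraries, at 2781.5 CPM in lacZ replicate 1 and 1430.5 CPM in lacZ replicate 2. The part of this difference, and of the number of cells sorted, in the members' values was not tested.

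**Figure D4:**
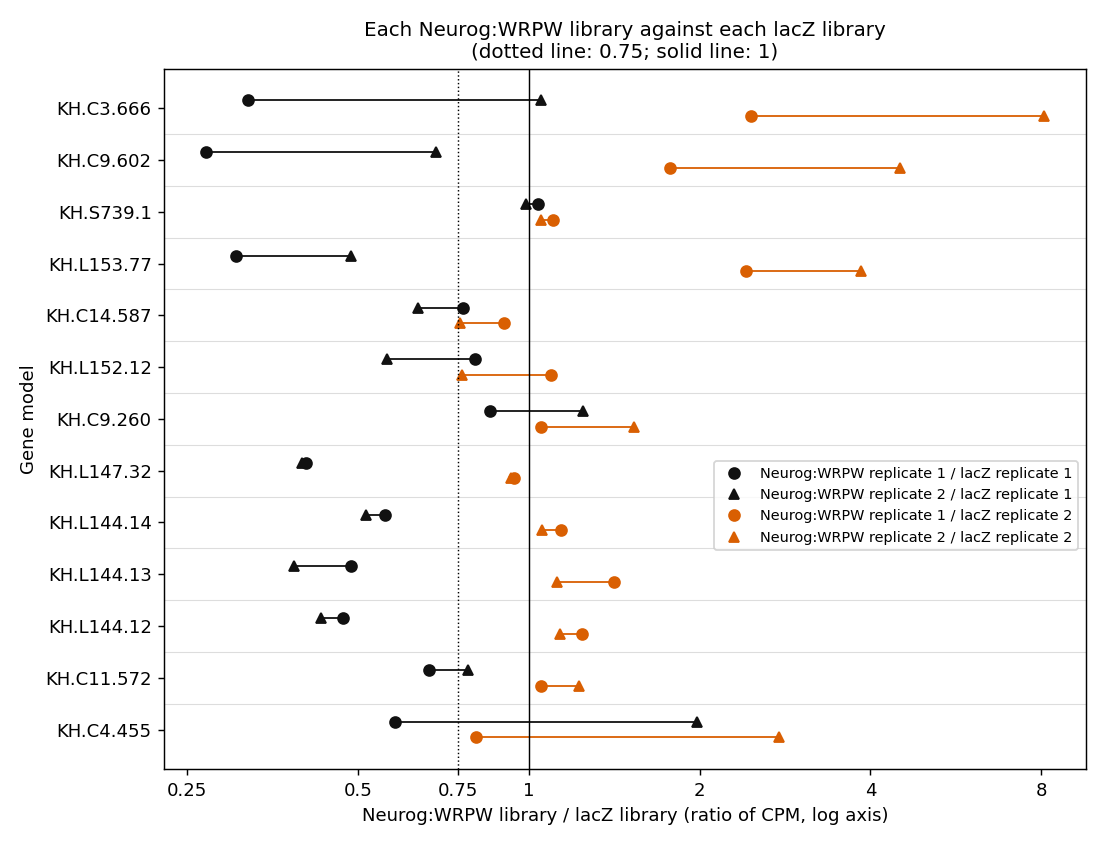
For each member (rows), the level in each Neurog:WRPW library over that in each lacZ library is plotted as a ratio of CPM on a log axis, with ratios to lacZ replicate 1 in black and to lacZ replicate 2 in orange, circles for Neurog:WRPW replicate 1, triangles for Neurog:WRPW replicate 2, a dotted line at 0.75 and a solid line at 1. Ratios to lacZ replicate 2 are 0.757 or more throughout, while those to lacZ replicate 1 fall as low as 0.270.

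Neurog:WRPW overlapped with lacZ in 11 of the 13 members (72.6% of the 8368 models). In the other two, KH.C14.587 and KH.L147.32, both Neurog:WRPW values were lower than both lacZ values (20.8% of the models), which with DESeq2 size factors held for KH.C14.587 alone. In no member were both Neurog:WRPW values above both lacZ values (6.61% of the models), although with TMM scaling or DESeq2 size factors 1 member, KH.S739.1, was. Expressed as means, Neurog:WRPW was at 0.563 times lacZ for KH.L147.32 and at 1.49 times for KH.C4.455, the ends of the range. Summed over the members, the level was 49.0 and 92.7 CPM in Neurog, 316.2 and 587.9 in Neurog:WRPW and 705.3 and 226.5 in lacZ. Without the 3 members whose lacZ replicates were over 5 times apart, it was 39.5 and 78.8 CPM in Neurog, 169.8 and 174.3 in Neurog:WRPW and 218.6 and 159.5 in lacZ. In that smaller sum the Neurog:WRPW libraries lay inside the lacZ range.

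The members were set beside the 26 models that Neurog lowered but that did not meet the Neurog:WRPW condition. As the rule requires, the lower Neurog:WRPW value was higher in the members, at a median of 1.05 times the lower lacZ value, against 0.475 times for the 26 models. Neurog:WRPW replicate 1 alone reached 0.75 times the lower lacZ value in 14 of the 26 models, and Neurog:WRPW replicate 2 alone in 6 of them. The higher Neurog value had a median of 0.380 times the lower lacZ value in the members and 0.50 times in the 26 models. In lacZ, replicate 1 was above replicate 2 in 13 of 13 members and in 21 of the 26 models. The rule used the lacZ values as well, so nothing is read from these counts.

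In the fit of all 12253 models over 1 CPM in at least 2 libraries, each member's LogFC (log2 scale, after TMM scaling) was taken beside its standard error. For Neurog vs. lacZ the median LogFC was -2.56 over the members and -0.033 over all models tested. Leaving aside KH.L153.77, whose fitted value rests on 3 counts, the members ran from -4.76 (standard error 1.15) for KH.C9.602 to -1.14 (standard error 0.25) for KH.C14.587. At the thresholds of a LogFC under -0.6 and an unadjusted p under 0.05, 13 of 13 members were called lower, against 1.83% of all models. With a LogFC over 0.6 and the same p limit, 4.36% of all models and 0 members were called higher. Because the rule used this contrast, nothing is read from the member counts. With the condition as the only factor, no model passed an adjusted p of 0.05 in edgeR's quasi-likelihood test of Neurog vs. lacZ, members included, with 771 models at an unadjusted p under 0.05, while DESeq2 passed 220 models, 10 members among them. Without lacZ replicate 1, 8 of 13 members were called, KH.C3.666, KH.C4.455, KH.C11.572, KH.L144.13 and KH.S739.1 being lost. In 7 of the 13 the LogFC moved by over 1.5 times on the linear scale when 1 library was left out. Without lacZ replicate 1 it was -2.29 for KH.C3.666 (-4.29 with it) and -2.99 for KH.C9.602. Without Neurog replicate 1 it was -6.11 for KH.C9.602 and -0.93 for KH.S739.1 (-1.71 with it), and without Neurog replicate 2 it was -3.22 for KH.S739.1.

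For Neurog:WRPW vs. lacZ the median LogFC was -0.23 over the members and -0.017 over all models, 9 members being below 0 and 4 above. The values ran from -0.68 (standard error 0.52) for KH.L147.32 to 0.74 (standard error 0.69) for KH.C4.455, and over the members the standard error had a median of 0.54. At the same thresholds 0 of 13 members were called in either direction by edgeR's quasi-likelihood test, against 1.19% of models lower and 0.318% higher, and 0 by DESeq2. The rule used this contrast as well and the shares over all models are small, so nothing is read from these counts. Leaving out lacZ replicate 1 called KH.L153.77 higher and leaving out Neurog:WRPW replicate 1 called KH.C4.455 higher. A missing call does not show that the levels were equal.

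For Neurog vs. Neurog:WRPW the median LogFC was -2.28 over the members and -0.038 over all models, and 13 of 13 members were called lower in Neurog (3.49% of all models) and 0 higher (7.08% of all models). At an adjusted p under 0.05 edgeR's quasi-likelihood test called 5 models higher (0.0408%) and none lower, members included, with 1323 models at an unadjusted p under 0.05, and DESeq2 called 514 models, 8 members among them. Both Neurog:WRPW values were above both Neurog values in 13 of 13 members (9.36% of the 8368 models). The rule itself placed every Neurog:WRPW value at 1.25 times every Neurog value or more, so these counts too are a description. The 3 contrasts share libraries pairwise. The smallest gap was that of KH.C14.587, whose lower Neurog:WRPW value was 1.29 times its higher Neurog value, and for KH.C9.602, KH.L144.14 and KH.C3.666 it was 7.69, 7.66 and 6.59 times.

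Beyond their levels, the members had few shared features in the table. Per kilobase of model length, the mean lacZ level was 85.2 CPM per kb for KH.C3.666, 53.5 for KH.S739.1, 40.4 for KH.C9.602 and 26.4 for KH.L153.77, and 2.00 to 9.92 CPM per kb for the other 9. The lacZ ranges of the leading 4 overlapped, except those of KH.S739.1 and KH.L153.77. The lower lacZ value had a median of 7.80 CPM over the members and 27.7 CPM over the 8368 models, so most members sat near the control minimum. Model lengths were 1005 to 4971 bases, with a median of 1671 bases for the members and 2059 bases for the 8368 models. By the prefix of their ID, 6 members were KH.C models, 6 were KH.L models and 1 was a KH.S model, against 72.2%, 19.8% and 7.99% of the 8368 models. Of the 6 KH.L models, 3 are the run KH.L144.12 to KH.L144.14, which may not be independent, so nothing is read from these shares.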

How the data were processed

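The authors mapped reads with STAR 2.5.2b, counted them over exons of KH gene models with featureCounts without duplicates, and deposited raw counts per gene model and library. The strand setting and the assembly version were not given in the sources used here. How reads over overlapping genes were assigned is therefore not known here. CPM used each library's total. The 12253 models that exceeded 1 CPM in 2 or more libraries went through TMM scaling and 1 fit of all 6 libraries, condition as the only factor, with edgeR 4.0.16 quasi-likelihood (R 4.3.3), two-sided, with Benjamini-Hochberg adjustment over all models. The edgeR test of Neurog vs. lacZ was tried on simulated counts with known changes. Alternatives were DESeq2 1.42.0, no low-count filter, other scalings and limits, the replicate number as a block, and each library left out. The members and lists were chosen with earlier results of these data known. Named genes are all 13 members, the 3 models nearest each limit, and neighbours named after their values were seen. Pathway lists, promoters and proteins were not analysed here, since KH models could not be matched to the reference by name.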

Additional observations from a re-analysis of the deposited data

How the results depend on the processing

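The 13 members became 27 with TMM-scaled CPM and 29 with DESeq2 size factors, 6 and 30 with a control minimum of 10 and 1 CPM, 8 and 26 with a Neurog limit of 0.5 and 0.7, and 2 with Neurog:WRPW set against the higher lacZ value, an alternative chosen after seeing the data. Both scalings held all 13, and the looser limits had to. Leaving out 1 library gave 17 to 188 members, and without a Neurog or Neurog:WRPW library the set had to hold the 13. Unscaled CPM put the median log2 ratio of Neurog:WRPW over lacZ at -0.12, against -0.010 with TMM. For Neurog over lacZ it was 0.090 unscaled and -0.052 with TMM. The counts of lowered and raised models above used unscaled CPM only. The replicate numbers are shared without a stated batch. The difference between replicates 1 and 2 correlated at 0.55 to 0.62 between groups over 7982 models. Paired by number, as a replicate block, 7 models met the rule, 4 of them members. With the block in edgeR, calls were 1409 against 758 for Neurog vs. lacZ, 577 against 185 for Neurog:WRPW vs. lacZ and 2135 against 1296 for Neurog vs. Neurog:WRPW. Member calls stayed at 13, 0 and 13, but the rule used every contrast, so nothing is read from them. At an adjusted p under 0.05 the block gave 179 models with 2 members for Neurog vs. lacZ (0 without it), 0 for Neurog:WRPW vs. lacZ, and 461 models with 3 members for Neurog vs. Neurog:WRPW (5 without it, no member). Leaving out 1 library gave 402 to 931, 113 to 1103 and 845 to 1925 calls, and 8 to 13, 0 to 1 and 9 to 13 member calls. The sign of the LogFC held for 13 of 13 members in Neurog vs. lacZ under the 10 alternatives, and for 4 of 13 in Neurog:WRPW vs. lacZ. The rule set every Neurog value of a member below both of its lacZ values, so nothing is read from the first count. The LogFC moved by over 1.5 times on the linear scale without 1 library in 7 of 13 members in each of these contrasts. Why the values moved was not tested. The lowest counts of a member, 1 in a Neurog library and 59 in a Neurog:WRPW library, limit the precision of the deepest losses.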
